A study of Mus musculus with 8 samples.

Results

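The genes described here are the tumour suppressor p53 and genes it switches on, taken as a list of 10 symbols (Trp53, Mdm2, Bbc3, Bax, Ccng1, Phlda3, Zmat3, Perp, Plk2 and Gdf15) and matched by symbol to the array's probe annotation. Of the 10, 7 matched a probe set with 1 gene symbol and are the main set below, out of 22180 genes tested in all. Trp53 itself, Bax and Gdf15 were not analysed here, so the text describes p53 targets and not the transcript of p53. Each of the 7 genes was read by 1 probe set.

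The cells were primary articular chondrocytes, the cells of joint cartilage, from the knee joint surfaces of wild-type ICR mice aged 5 days. The Ad-Zip8 group (4 arrays) had been infected with an adenovirus that expresses the zinc transporter ZIP8, and the Ad-null group (4 arrays) with the null adenovirus, so both groups carried a viral infection and no uninfected cells are among the 8 arrays. Total RNA was taken 24 h after infection. The labels call the arrays biological replicates but do not say whether animals were pooled or which promoter drives the transgene, and p-values therefore reflect only how far these samples vary, which may be technical. The comparison addresses what a raised amount of ZIP8 does to gene expression in chondrocytes.

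p53 is a transcription factor that cells keep scarce through the ubiquitin ligase MDM2 and stabilise after DNA damage and other stress. It folds around a bound zinc ion, recognises DNA through paired short half-sites, and switches on genes for cell cycle arrest, cell death, DNA repair and its own feedback inhibition. In cartilage it has been studied for its part in the death and growth arrest of stressed chondrocytes. Many cell cycle genes are lowered by p53 indirectly, through the Cdk inhibitor p21 and the DREAM repressor complex.

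The promoters of 4 genes are shown to set exact matches to a p53 half-site beside targets that did and did not pass the test. They come from RefSeq on build GRCm38.p6, whereas no source used here names the build of the array. The Mdm2 stretch is chr10:117710889-117710988 on the minus strand, the Ccng1 stretch chr11:40755417-40755516 on the minus strand, the Plk2 stretch chr13:110394934-110395033 on the plus strand and the Cdkn1a stretch chr17:29090869-29090968 on the plus strand. All 4 lie upstream of an annotated start of their gene and run 5′ to 3′ on the gene's strand. Capitals mark a p53 half-site in Mdm2, Ccng1 and Cdkn1a, and the cAMP response element TGACGTCA in Plk2.
Mdm2: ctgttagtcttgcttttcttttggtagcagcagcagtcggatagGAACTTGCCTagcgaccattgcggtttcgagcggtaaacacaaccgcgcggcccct
Ccng1: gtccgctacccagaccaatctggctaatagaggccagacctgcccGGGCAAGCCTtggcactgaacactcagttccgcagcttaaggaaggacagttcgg
Plk2: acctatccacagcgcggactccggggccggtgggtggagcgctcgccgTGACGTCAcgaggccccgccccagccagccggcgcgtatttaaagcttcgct
Cdkn1a: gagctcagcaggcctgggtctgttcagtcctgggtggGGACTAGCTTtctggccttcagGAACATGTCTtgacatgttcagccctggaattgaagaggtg

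The half-site searched was the p53 half-site consensus of 10 bases, which reads the same on both strands, as does the cAMP response element, and the motifs do not overlap in these stretches. Each window searched held 300 bases, 250 before and 50 after an annotated start, and 8.36% of the 32851 windows in the table held a half-site. Windows were given for 5 of the 7 genes, and those of Mdm2 and Ccng1 held 1, starting 186 and 185 bases before the start. The windows of Bbc3, Phlda3 and Plk2 held none. The cAMP response element, found in 1.79% of all windows, starts 62 bases before the Plk2 start. Among p53 targets outside the main set it was also found in Btg2, which rose, and in Ppm1d, which did not pass. Cdkn1a, the gene of p21, had 2 half-sites 12 bases apart in the window of its more upstream annotated start. They start 73 and 51 bases before that start. The 10 bases directly after the later one, tgacatgttc, miss the consensus only at their first base and were not counted. Another Cdkn1a window, chr17:29093519-29093818 on the plus strand, held none. A pair spaced by at most 13 bases was found in 0.0731% of all windows. Only exact matches to the consensus were counted and marked. A match describes letters and is not evidence of binding.

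Before the results, the labels were checked. Slc39a8, the gene that encodes ZIP8, had a mean log2 value of 11.13 ± 0.15 in Ad-Zip8 cells and 6.20 ± 0.07 in Ad-null cells (SD, n = 4 each), which is 30.4-fold. The 8 chondrocyte markers, from Col2a1 to Hapln1, were present in both groups with group means between 10.22 and 13.46. All 8 were lower in every Ad-Zip8 array than in any Ad-null array and 6 passed the test, and the sum of their unlogged signals ran from 34469 to 39953 in Ad-Zip8 arrays, against 49816 to 51078 in Ad-null arrays. Of 6 macrophage markers Cd14 and Cd68 rose and 4 did not pass (summed signal 343 to 444 in Ad-Zip8 arrays and 217 to 247 in Ad-null arrays), and of 5 fibroblast markers Dcn and Pdgfra rose and 3 did not pass (summed signal 9482 to 10358 in Ad-Zip8 arrays and 6857 to 7428 in Ad-null arrays). None of 5 endothelial markers passed, nor did any at an unadjusted p under 0.05. Of 5 skeletal muscle markers Acta1 fell, and of 5 bone cell markers Ibsp rose and Sp7 fell. Beside these counts, 5.48% of all genes rose, 5.12% fell and 9.74% were lower without overlap of the groups. At an unadjusted p under 0.05 of the limma fit used below, 10.3% of all genes were higher and 12.4% lower. The lowest value of any probe set was 0.85, so none could be at 0, and without detection calls the presence of dim markers could not be judged. Mean log2 values over all arrays were 3.30 for Ptprc, 3.90 for Tek and 4.17 for Adgre1, against a median of 5.64 over all genes. The part of any of these markers in the results below was not tested, and on RNA from whole cultures fewer cells of a type and less RNA per cell cannot be told apart.

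Among the 7 p53 targets, Plk2 rose 1.71-fold in the Ad-Zip8 cells, Perp fell to 0.667 of its Ad-null level, and Mdm2, Ccng1, Bbc3, Phlda3 and Zmat3 did not pass the test. Mdm2 and Ccng1, the feedback genes of the set, had differences of -0.10 and -0.077 on the log2 scale. In the reported fit their 95% intervals ended at a rise of 1.07-fold for Mdm2 and 1.06-fold for Ccng1. Under 14 alternative fits the differences reached up to -0.0557 for Mdm2 and -0.0322 for Ccng1, so these limits belong to the reported fit alone. All tests of single genes come from a limma fit over all 22180 genes with Benjamini-Hochberg adjustment and a threshold of 0.05, and log2 differences are Ad-Zip8 minus Ad-null. In that fit 10.6% of all genes passed, 5.48% higher and 5.12% lower, so that 2 of 7 is a count too small to set the targets apart from other genes. The median log2 difference was 0.0047 over the 7 targets and -0.017 over all genes. Intervals are for a single gene and are not adjusted for the number of genes.

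**Figure D1:**
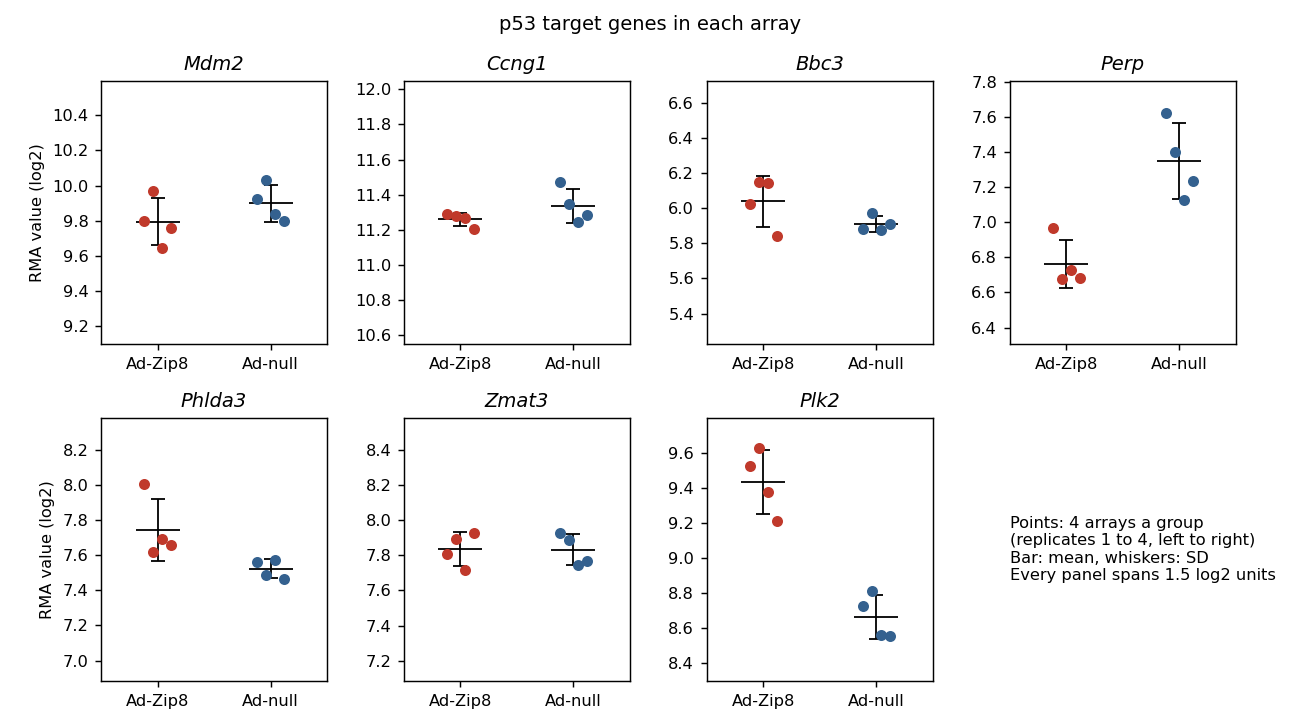
Values of the 7 analysed p53 targets in each array, on the log2 RMA scale, with Ad-Zip8 arrays (red) left of Ad-null arrays (blue), the mean as a bar and the SD as whiskers (n = 4 a group). Plk2 is higher and Perp lower in all 4 Ad-Zip8 arrays, Phlda3 is higher by a smaller step, and the groups overlap for the other 4 genes.

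Mdm2 encodes the ubiquitin ligase that marks p53 for degradation and is itself a p53 target. Its log2 values were 9.80, 9.97, 9.65 and 9.76 in Ad-Zip8 replicates 1 to 4, against 9.93, 10.03, 9.84 and 9.80 in Ad-null replicates 1 to 4. The groups overlapped, although the Ad-Zip8 array was the lower one in all 4 same-numbered pairs, by 0.038 to 0.19. The pairing by number was inferred from the data. The difference of -0.10 had an SE of 0.090 and a 95% interval of -0.30 to 0.095 (adjusted p = 0.562).

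Ccng1 encodes cyclin G1, a p53 target whose product acts on MDM2 through a phosphatase. It had log2 values of 11.29, 11.28, 11.27 and 11.20 in Ad-Zip8 cells and 11.47, 11.35, 11.24 and 11.28 in Ad-null cells. The Ad-Zip8 arrays lay close together inside or just below the Ad-null range. The difference of -0.077 (SE 0.073, 95% interval -0.24 to 0.086) did not pass (adjusted p = 0.606).

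Bbc3 encodes PUMA, a protein of the Bcl2 family that triggers mitochondrial cell death. Its log2 values were 6.02, 6.15, 6.14 and 5.84 in Ad-Zip8 cells, against 5.88, 5.97, 5.87 and 5.91 in Ad-null cells. Replicates 1 to 3 of Ad-Zip8 were above every Ad-null array and replicate 4 was below all of them. The difference was 0.13 (SE 0.084, 95% interval -0.060 to 0.32, adjusted p = 0.428), so the interval reached up to a rise of 1.25-fold.

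Perp encodes a membrane protein of cell junctions that p53 induces during cell death, and it fell. Its log2 values were 6.97, 6.67, 6.73 and 6.68 in Ad-Zip8 cells and 7.63, 7.40, 7.13 and 7.24 in Ad-null cells. The highest Ad-Zip8 array, replicate 1, was below the lowest Ad-null array. The means were 6.76 ± 0.14 in Ad-Zip8 cells and 7.35 ± 0.22 in Ad-null cells (SD, n = 4 each), and their difference was -0.58 (SE 0.12), with a 95% interval of -0.85 to -0.32 (adjusted p = 0.0103). Replicate 1 was the highest array of each group, and without Ad-null replicate 1 the difference was -0.492 (adjusted p = 0.0216).

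Phlda3 encodes a membrane-lipid-binding protein that holds back the kinase AKT. It had log2 values of 8.01, 7.62, 7.69 and 7.66 in Ad-Zip8 cells, against 7.56, 7.49, 7.57 and 7.47 in Ad-null cells. Every Ad-Zip8 array was above every Ad-null array, most clearly replicate 1. The difference of 0.22 (SE 0.094, 95% interval 0.013 to 0.43) did not pass (limma adjusted p = 0.192), and without Ad-Zip8 replicate 1 it was 0.135. With Plk2 and Perp, 3 of the 7 targets had groups that did not overlap, against 17.6% of all genes (7.89% higher and 9.74% lower).

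Zmat3 encodes a zinc finger protein that binds RNA and alters splicing. Its log2 values were 7.81, 7.90, 7.71 and 7.93 in Ad-Zip8 cells and 7.93, 7.89, 7.75 and 7.77 in Ad-null cells. The groups covered nearly the same range. The difference was 0.0047 (SE 0.079, 95% interval -0.17 to 0.18, adjusted p = 0.981), and its sign turned when arrays were centred on their medians (-0.0164).

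Plk2 encodes polo-like kinase 2, which acts in centriole duplication and is a p53 target as well as an early gene of growth factor stimulation, and it rose. It had log2 values of 9.53, 9.63, 9.37 and 9.21 in Ad-Zip8 cells, against 8.73, 8.81, 8.56 and 8.55 in Ad-null cells. The lowest Ad-Zip8 array stood above the highest Ad-null array, and same-numbered arrays differed by 0.66 to 0.82. The means were 9.43 ± 0.18 in Ad-Zip8 cells and 8.66 ± 0.13 in Ad-null cells (SD, n = 4 each), and the log2 difference was 0.77 with an SE of 0.11 and a 95% interval of 0.54 to 1.01 (adjusted p = 0.00120).

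The other genes of the pathway gave a wider view: of 33 further p53 targets analysed, 7 rose (21.2%), none fell and 26 did not pass, beside 5.48% of all genes that rose and 5.12% that fell. Their median log2 difference was 0.063. At an unadjusted p under 0.05 there were 10 higher and 3 lower in the same limma fit, beside 10.3% higher and 12.4% lower among all genes. The share of lower targets is near the background and that of higher targets above it, a difference that was not tested. Groups did not overlap for 11 of the 33, and 10 of these were higher in Ad-Zip8 cells, beside 17.6% of all genes without overlap (7.89% higher and 9.74% lower). By list, 4 of 9 arrest and feedback genes rose, 2 of 10 death genes, 1 of 10 metabolic, redox and other genes and 0 of 4 DNA repair genes, and the difference between lists was not tested.

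**Figure D2:**
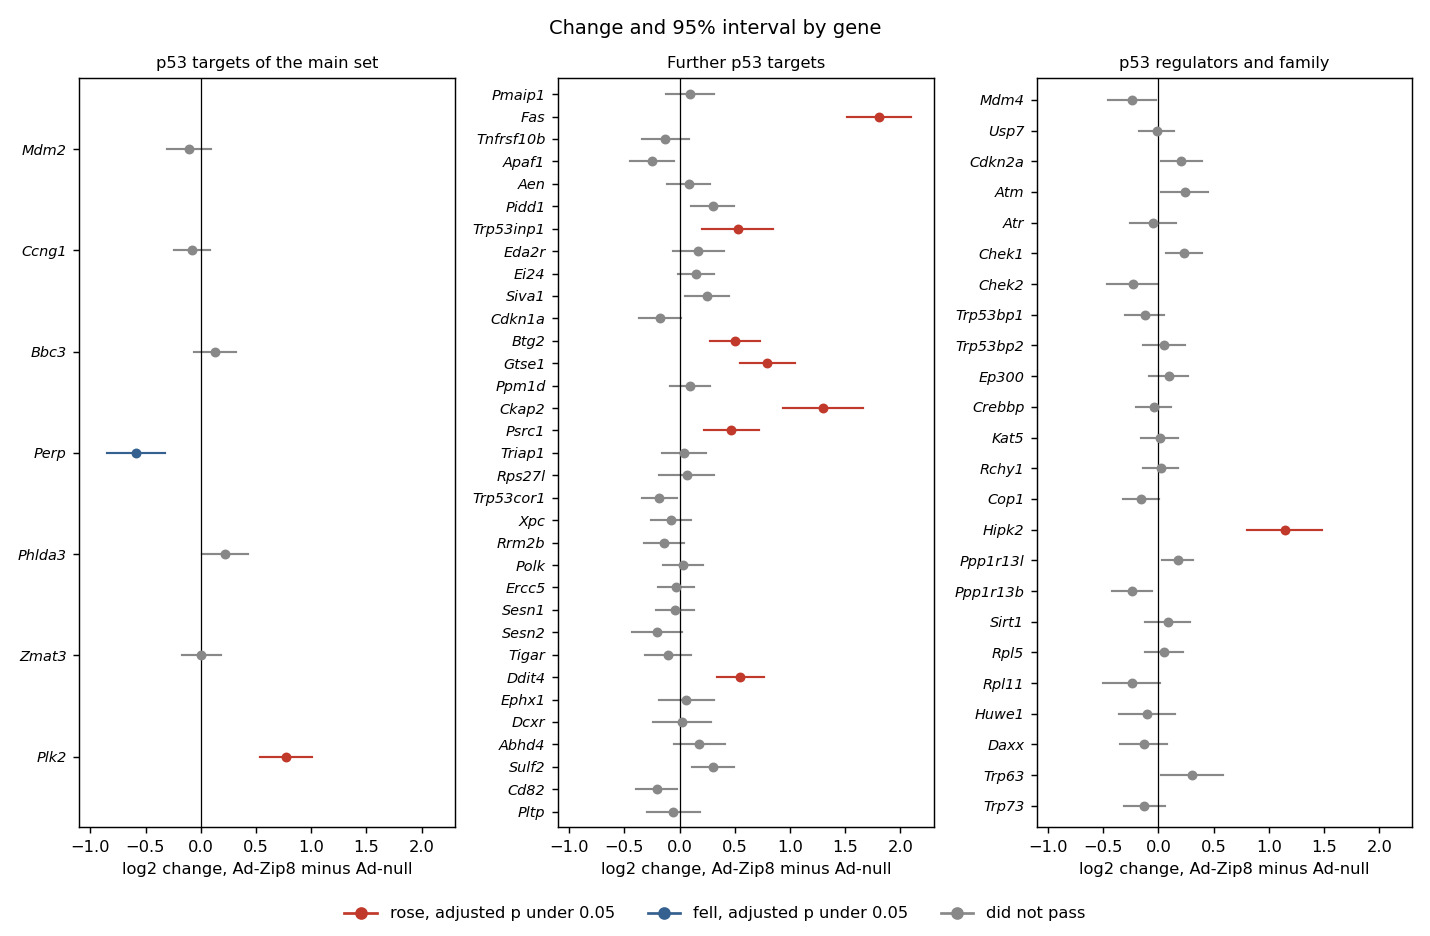
Log2 difference of each gene, Ad-Zip8 minus Ad-null, with its 95% interval, for the 7 targets of the main set (left), the 33 further targets (middle) and 24 regulators and relatives of p53 (right). Fas, at 1.81, and Ckap2, at 1.30, stand farthest to the right, Perp is the gene in blue, and most genes in grey lie within 0.3 of 0.

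Among 10 further death genes, Fas and Trp53inp1 rose and 8 did not pass. Fas, the gene of a death receptor at the cell surface, had log2 values of 9.68, 9.50, 9.63 and 9.23 in Ad-Zip8 cells and 7.90, 7.87, 7.49 and 7.55 in Ad-null cells. It was 3.50-fold higher with a 95% interval of 2.86 to 4.28 (log2 difference 1.81, SE 0.13, adjusted p = 2.74e-05), the largest change among the 40 p53 targets analysed, members of the main set included. Trp53inp1, whose product helps p53 switch on death genes, rose 1.44-fold (adjusted p = 0.0445), a call that was lost without any 1 of Ad-Zip8 replicates 1 to 4 or Ad-null replicates 2 to 4 (adjusted p up to 0.105) and on median-centred arrays (adjusted p = 0.0567). Pmaip1, the gene of the Bcl2 family protein NOXA and the nearest counterpart of Bbc3, had means of 5.46 ± 0.12 in Ad-Zip8 cells and 5.37 ± 0.16 in Ad-null cells (SD, n = 4 each, adjusted p = 0.652).

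Cdkn1a encodes p21, the Cdk inhibitor through which p53 stops the cell cycle. It had log2 values of 11.42, 11.37, 11.20 and 11.15 in Ad-Zip8 cells, against 11.57, 11.50, 11.36 and 11.41 in Ad-null cells. The groups overlapped, and the Ad-Zip8 array was the lower one in each of the 4 same-numbered pairs. The difference of -0.18 (SE 0.086, 95% interval -0.37 to 0.013) did not pass (adjusted p = 0.258), and its interval in the reported fit ended at a rise of 1.01-fold. Over the 14 alternative fits the difference ran from -0.224 to -0.132.

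Of 9 arrest and feedback genes analysed, Cdkn1a included, Ckap2, Gtse1, Btg2 and Psrc1 rose and 5 did not pass. Btg2, an antiproliferative gene, ran from 7.73 to 8.04 on the log2 scale in Ad-Zip8 arrays and from 7.30 to 7.64 in Ad-null arrays, so the groups did not overlap (1.41-fold, adjusted p = 0.0116). The other 3 encode proteins of the dividing cell that also bind microtubules: Ckap2 rose 2.46-fold (adjusted p = 6.69e-04), Gtse1, which also restrains p53, 1.74-fold (adjusted p = 0.00136) and Psrc1 1.38-fold (adjusted p = 0.0256). The Psrc1 call was lost without Ad-Zip8 replicate 1 or 2 or Ad-null replicate 2 or 4 (adjusted p up to 0.0726). Leaving these 3 out, a choice made after their values were seen, 4 of 30 further targets rose and 0 fell. Of all genes 5.48% rose and 5.12% fell, shares from which no such genes were left out. Leaving out genes that had risen lowers the count by construction, so no conclusion is drawn from it.

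The cell cycle moved beside them. Of 14 genes known to be lowered through p21 and DREAM, all 14 rose, beside 5.48% of all genes. Their log2 differences were between 0.73 and 1.36, with a median of 0.98. Top2a, the gene of a DNA topoisomerase of dividing cells, was 2.56-fold higher, Birc5, the survivin gene, 2.43-fold, the mitotic kinase gene Plk1 2.05-fold and Cdk1 1.98-fold (adjusted p between 2.90e-05 and 4.71e-05). This list was chosen with an increase of cell cycle genes in these data already known, so its direction is not independent evidence. The part of the dividing cells in the rise of Ckap2, Gtse1 and Psrc1 was not tested.

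**Figure D3:**
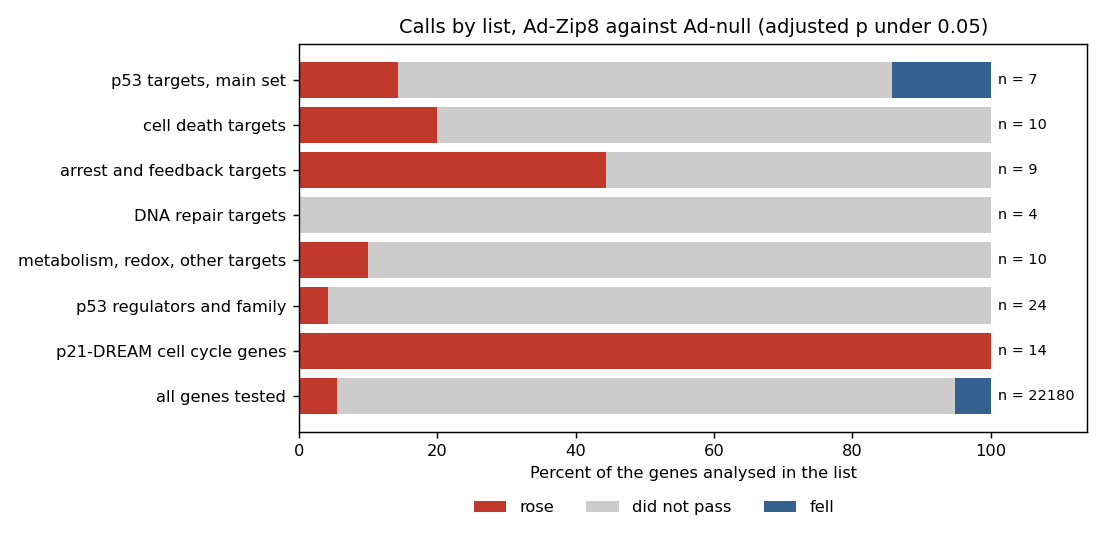
Share of the analysed genes of each list that rose (red), did not pass (grey) or fell (blue) at an adjusted p under 0.05, with the number of genes analysed at the right and all 22180 genes in the bottom bar. The 7 targets of the main set hold 1 gene in each direction, the DNA repair list none, and all 14 cell cycle genes rose.

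The DNA repair targets analysed were Xpc, Rrm2b, Polk and Ercc5, which serve excision repair, nucleotide supply and synthesis past DNA damage. Their log2 differences were between -0.14 and 0.031. None of the 4 passed, beside 10.6% of all genes. At an unadjusted p under 0.05 in the limma fit none was called either, beside 10.3% of all genes higher and 12.4% lower. A list of 4 is too small to set these targets apart from other genes. Among 10 metabolic, redox and other targets, Ddit4, whose product REDD1 restrains mTOR signalling, rose 1.47-fold (adjusted p = 0.00461) and 9 did not pass. Its log2 values were 8.51, 8.41, 8.36 and 8.37 in Ad-Zip8 cells and 8.10, 7.79, 7.68 and 7.87 in Ad-null cells, without overlap. The sestrin genes, which protect against oxidative stress, did not pass: Sesn1 had means of 7.64 ± 0.10 in Ad-Zip8 cells and 7.68 ± 0.07 in Ad-null cells, and Sesn2 9.70 ± 0.16 in Ad-Zip8 cells and 9.91 ± 0.14 in Ad-null cells (SD, n = 4 each; adjusted p = 0.799 and 0.281).

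Upstream of p53, 1 of 24 regulators and relatives rose and none fell, beside 5.48% of all genes that rose and 5.12% that fell. At an unadjusted p under 0.05 the limma fit had 6 of the 24 higher and 3 lower, beside 10.3% and 12.4% of all genes. Both the call and the share of lower genes are near the background. The share of higher genes is above it, a difference that was not tested. The gene that rose was Hipk2, a kinase that phosphorylates p53 and other transcription factors, with log2 values of 9.90, 9.69, 9.96 and 10.07 in Ad-Zip8 cells and 8.63, 8.38, 8.91 and 9.12 in Ad-null cells (2.21-fold, 95% interval 1.74 to 2.80, adjusted p = 0.00105). All its Ad-Zip8 arrays were above all Ad-null arrays. Mdm4, a relative of Mdm2 that blocks p53, had means of 8.32 ± 0.11 in Ad-Zip8 cells and 8.55 ± 0.16 in Ad-null cells (SD, n = 4 each, adjusted p = 0.179). Cdkn2a, whose locus encodes the MDM2 inhibitor ARF, had a log2 difference of 0.21 (adjusted p = 0.172), and the DNA damage kinase gene Atm one of 0.24 (adjusted p = 0.171). The p53 relatives Trp63 and Trp73 had differences of 0.31 (adjusted p = 0.181) and -0.13 (adjusted p = 0.425). The median over the 24 genes was -0.0028.

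Half-sites were found in genes that rose and in genes that did not pass. Of the 11 further targets with a half-site in a window, Ckap2 and Gtse1 rose, and of the 16 with windows but no half-site 4 rose. Among all genes 5.48% rose and 10.6% passed in either direction. In the main set neither of the 2 genes with a half-site passed, and of the 3 without one Plk2 rose. A half-site was found in 12 of 39 windows of the further targets and in 2 of 7 windows of the main set, against 8.36% of all windows. These are counts of letters near annotated starts, and no test was made.

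The genes whose pattern over the 8 arrays was most like that of Plk2 were Mcm3, a DNA replication gene (Pearson r = 0.991), the phosphatase gene Ptpn1 (0.988) and the early response gene Egr1 (0.986), out of 22173 genes. For Perp they were Sardh (0.983), Pomt2 (0.979) and F13a1 (0.979). These values are a description over arrays that fall into 2 groups and share their normalization. On deviations from the group means the correlations ran from 0.862 to 0.945. The genes had been picked by correlation over these same arrays, which favours high values here, so this is no separate check.

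**Figure D4:**
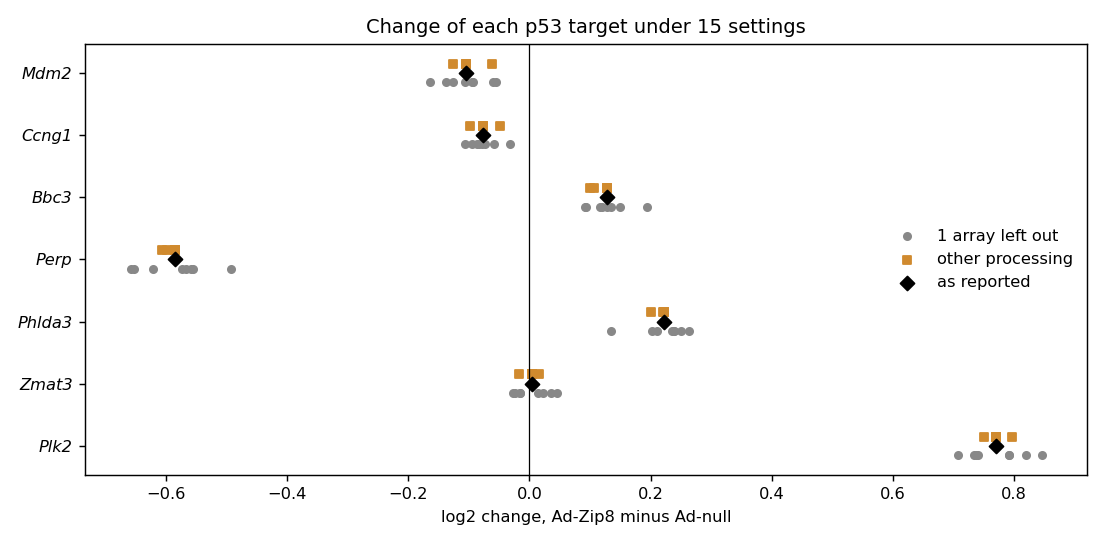
Log2 difference of each of the 7 targets, Ad-Zip8 minus Ad-null, as reported (black), with 1 array left out (grey) and under other processing (orange). Plk2 stays between 0.707 and 0.846 and Perp between -0.658 and -0.492, whereas Zmat3 lies on both sides of 0.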

How the data were processed

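RNA of 8 chondrocyte cultures was measured on arrays after biotin labelling with a whole-transcript kit, per the labels' protocols. The authors deposited log2 values per probe set, which the submitters' processing notes credit to RMA, a method of background correction, quantile normalization and probe summary. No source used here gives its version or annotation, and neither scanner files nor detection calls entered the work. Of 41345 probe sets, 23521 had 1 gene symbol, 1814 several and 16010 none listed; the probe set with the highest mean was kept per gene (22180 genes, 21994 found in the RefSeq table of GRCm38.p6 by Entrez identifier, 0 symbols changed). Array medians ran from 5.04 to 5.11, and the number of arrays limits the precision.

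Groups came from the sample titles. Ad-Zip8 was compared with Ad-null in limma 3.58.1 (R 4.3.3; lmFit, eBayes, two-sided, no covariate, no filter), tested on simulated data. Members and lists were chosen with earlier results of these data known. Named genes were Slc39a8, the main set, up to 4 called genes per list by adjusted p, and Cdkn1a, Pmaip1, Fas, Sesn1, Sesn2, Mdm4, Cdkn2a, Atm, Trp63 and Trp73; others in sensitivity or counts of 5 or fewer were named after their values were seen. Of the listed genes, Trp53, Bax, Gdf15, Gadd45a, Ddb2, Fdxr and Ccnb1 were not analysed here. Promoters were searched in Python 3.11.15. Alternatives were a variance trend, leaving out dim genes, 2 rescalings, a replicate block, probe set means and leaving out each array. Same-numbered arrays of the groups deviated together (r = 0.11 to 0.37, other pairs -0.27 to 0.16), and this pairing was inferred from the data. Among the tests it enters the replicate block alone, so every p and interval reported is without it unless the block is named. The descriptions of same-numbered arrays for Mdm2, Plk2 and Cdkn1a also rest on it. No array duplicated another (r at most 0.993).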

Additional observations from a re-analysis of the deposited data

Results flagged for a closer look

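In Btg2, Ad-null replicate 1 had a log2 value of 7.64, whereas the other 3 Ad-null arrays lay between 7.30 and 7.35, which set it apart from its group. It was below the lowest Ad-Zip8 array, and without it the log2 difference was 0.577, against 0.501 with all arrays. Dixon's test was applied to 29 genes in both groups, 58 sets of 4 arrays, of which this was the 1 that passed and none was in the main set; chance alone passes about 1 in 20.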

How the results depend on the processing

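The calls of Plk2 and Perp held in direction and threshold under all 14 alternatives, with adjusted p of 5.37e-05 to 0.00551 and 0.00214 to 0.0327, and Mdm2, Ccng1, Bbc3, Phlda3 and Zmat3 passed under none. Zmat3 changed sign, to -0.0164 with arrays centred on their medians, and it ran from -0.0264 to 0.0455 when 1 array was left out. The further targets that rose numbered 5 to 10, while all genes that rose numbered 924 to 1414. The count of 10 came with dim genes left out, a fit over fewer genes, of which 1297 rose and 1625 fell. In that fit 1 further target fell, Apaf1 (log2 difference -0.252, adjusted p = 0.0453). With the replicate block 8 further targets rose and 0 fell, 1278 of all genes rose and 1059 fell, and no call among the named genes changed. The number of all genes that fell, 1136, was 708 without Ad-Zip8 replicate 1, 721 without Ad-null replicate 1 and 708 to 923 over all 8 such fits, so the background share of lower genes is the less stable one; the cause was not tested. Birc5, Pmaip1 and Trp73 are dim and have no value with dim genes left out. Signal over background could not be judged without detection calls.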
